A study of Mus musculus with 20 samples.

Results

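The standard proteasome was described here through 36 genes taken by symbol from the gene table: the structural subunits of its core and cap, 2 activators and 6 assembly factors, without the catalytic beta subunits. All 36 had a row among the 43629 genes of the table, and none was at 0 in any library. By role they comprised 7 alpha ring genes (Psma1 to Psma7), 4 non-catalytic beta ring genes (Psmb1 to Psmb4), 6 ATPase ring genes (Psmc1 to Psmc6), 11 non-ATPase cap genes and 3 cap assembly chaperone genes (Psmd5, Psmd9 and Psmd10). The other 5 were the activators Psme3 and Psme4 and the core assembly factors Pomp, Psmg1 and Psmg2. RNA came from nuclei of mouse spinal cord that were sorted in a flow cytometer by staining for NeuN, which marks the nuclei of most neurons. The 4 groups of 5 libraries each were EAE NeuN-positive, healthy NeuN-positive, EAE NeuN-negative and healthy NeuN-negative nuclei. EAE (experimental autoimmune encephalomyelitis) is an immune attack on the central nervous system raised by active immunization, and nuclei were sorted at day 15. The sources used here do not give strain, sex, age or the immunizing antigen, nor do they state whether a library came from a single mouse or whether healthy mice received adjuvant.

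The proteasome is the main protease of cytosol and nucleus for proteins tagged with ubiquitin. Its barrel-shaped core (20S) is built of alpha rings, which gate the entry, around beta rings, in which the catalytic subunits cut. A cap (19S) binds ubiquitin chains, removes them and threads the unfolded substrate in with a ring of ATPases. Dedicated chaperones put together the alpha ring, the beta ring and the ATPase ring. Inflammatory signals induce alternative catalytic subunits, and the resulting immunoproteasome uses the same alpha ring, structural beta subunits and assembly factor POMP.

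Total counts ran from 7072200 to 18686997 in EAE NeuN-positive and from 12076860 to 30499828 in healthy NeuN-positive libraries, and from 3149209 to 15525441 in EAE NeuN-negative and from 8336330 to 37689267 in healthy NeuN-negative libraries. Rbfox3, which encodes NeuN, averaged 194 ± 58.6 CPM (read counts scaled to a common library total; SD, n = 5) in EAE NeuN-positive, 313 ± 33.3 CPM in healthy NeuN-positive, 29.4 ± 15.4 CPM in EAE NeuN-negative and 29.7 ± 10.7 CPM in healthy NeuN-negative libraries. Mitochondrially encoded genes took 0.821 to 7.52% of counts in EAE NeuN-positive and 0.135 to 2.33% in healthy NeuN-positive libraries, and 1.76 to 12.3% in EAE NeuN-negative and 0.259 to 3.55% in healthy NeuN-negative libraries. Of the 13 genes behind this share, mt-Nd4l, mt-Co2, mt-Co3 and mt-Atp8 were at 0 in all 4 groups, and mt-Atp6 was at 0 in healthy NeuN-positive and EAE NeuN-negative libraries. EAE 2, EAE 4 and healthy 3 exceeded 2% in their NeuN-positive library, so the counts of members are also given without these 3 mice, a step added after the data were seen. The share still differed without them. Remaining NeuN-positive libraries held 0.821 to 0.976% in EAE and 0.135 to 0.572% in healthy mice. Remaining NeuN-negative libraries held 1.76 to 6.01% in EAE, with EAE 1 (3.65%) and EAE 5 (6.01%) over 2%, and 0.259 to 1.46% in healthy mice. The library numbers stand for mice here by assumption.

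Promoter sequences from RefSeq (GRCm38.p6, 250 bases before to 50 after the start of transcription) were at hand for 30 of the 36 genes. The 4 shown belong to the members on which the comparisons below turn most: Pomp and Psmd6 were called in both sorts, Psmd9 was higher in NeuN-positive nuclei of healthy mice, and Psme4 had the largest difference between the sorts in EAE. Capitals mark 2 motifs searched on both strands, CCGGAAG, which ETS family factors can bind, and TGACNNNGC, the core of the antioxidant response element.
Pomp (chr5:147860378-147860677, plus strand): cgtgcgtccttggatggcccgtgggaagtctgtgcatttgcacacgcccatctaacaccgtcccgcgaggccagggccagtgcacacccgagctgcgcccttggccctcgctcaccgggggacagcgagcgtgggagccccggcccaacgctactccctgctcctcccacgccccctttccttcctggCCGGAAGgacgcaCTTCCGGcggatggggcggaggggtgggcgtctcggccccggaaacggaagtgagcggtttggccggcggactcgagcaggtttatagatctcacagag
Psmd6 (chr14:14120896-14121195, minus strand): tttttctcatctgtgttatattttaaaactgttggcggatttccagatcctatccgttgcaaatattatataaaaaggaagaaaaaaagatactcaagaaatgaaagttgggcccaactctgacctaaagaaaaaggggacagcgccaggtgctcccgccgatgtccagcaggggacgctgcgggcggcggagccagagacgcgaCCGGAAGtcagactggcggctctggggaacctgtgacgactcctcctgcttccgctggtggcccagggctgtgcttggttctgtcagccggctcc
Psmd9 (chr5:123227940-123228239, plus strand): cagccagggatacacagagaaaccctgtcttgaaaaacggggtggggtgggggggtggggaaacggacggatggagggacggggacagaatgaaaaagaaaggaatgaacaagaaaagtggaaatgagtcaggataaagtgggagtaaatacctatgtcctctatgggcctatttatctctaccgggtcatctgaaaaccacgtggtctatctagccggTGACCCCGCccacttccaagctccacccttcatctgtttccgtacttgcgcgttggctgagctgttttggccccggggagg
Psme4 (chr11:30771525-30771824, plus strand): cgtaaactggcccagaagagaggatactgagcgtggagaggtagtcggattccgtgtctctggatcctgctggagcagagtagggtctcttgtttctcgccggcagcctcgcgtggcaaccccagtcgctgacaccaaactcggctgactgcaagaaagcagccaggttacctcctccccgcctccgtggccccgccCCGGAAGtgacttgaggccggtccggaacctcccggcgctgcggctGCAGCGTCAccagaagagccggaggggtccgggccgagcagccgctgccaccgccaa
Pomp held CCGGAAG once on each strand, and Psmd6 and Psme4 held it once each. Psmd9 and Psme4 held TGACNNNGC once each. The matches of the 2 motifs did not overlap in these promoters.

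CCGGAAG was present in 15 of the 32 member promoters (46.9%), in 14 genes, against 8.86% of all 32851 RefSeq promoters and 11.6% of the 21263 promoters of protein-coding genes. The 14 genes were Psma6, Psmc1, Psmc2, Psmc6, Psmd2, Psmd4, Psmd6, Psmd11, Psmd12, Psmd13, Psme3, Psme4, Pomp and Psmg1. This motif was chosen after the member promoters had been read, so its share is a description of the set from which it was drawn. TGACNNNGC was found in 4 of 32 (12.5%; Psmc6, Psmd9, Psmd12 and Psme4), against 12.4% of all promoters. CCAAT was found in 12 of 32 (37.5%), against 37.4% of all. An interferon response type of motif, 2 GAAA runs with any 2 bases between them, was found in Psmb3, Psmd4 and Psmd9 (9.38%), against 3.44% of all promoters. Each match is a run of letters in a window and not a measured binding site.

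Levels were compared between genes as CPM per kilobase of exon. Psmc5, an ATPase of the cap, stood highest in all 4 groups, at 116 ± 54.0 CPM per kilobase in EAE NeuN-positive, 98.3 ± 14.7 in healthy NeuN-positive, 83.4 ± 20.7 in EAE NeuN-negative and 95.3 ± 14.2 in healthy NeuN-negative libraries (SD, n = 5 each). Psmd4, a ubiquitin receptor of the cap, came next in 3 groups, at 85.6 ± 13.5, 76.0 ± 16.4 and 42.1 ± 18 CPM per kilobase in EAE NeuN-positive, healthy NeuN-positive and EAE NeuN-negative libraries. In EAE NeuN-positive libraries the gap between these 2 genes was smaller than the SD of Psmc5. In healthy NeuN-negative libraries Psmc4 (53.4 ± 12.4 CPM per kilobase) stood between Psmc5 and Psmd4 (48.6 ± 7.82 CPM per kilobase), and Psmc4 and Psmd4 differed by less than their spread.

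Except in healthy NeuN-positive libraries, the lowest levels were those of the cap assembly chaperone genes Psmd5 and Psmd9. In healthy NeuN-positive libraries Psmd9 stood at rank 31 (4.24 ± 0.354 CPM per kilobase). Psmd5 was last in EAE NeuN-positive (1.98 ± 0.554 CPM per kilobase), healthy NeuN-positive (2.65 ± 0.448) and EAE NeuN-negative libraries (1.75 ± 0.443). Psmd9 was last in healthy NeuN-negative libraries, at 2.55 ± 0.440 against 3.05 ± 0.561 CPM per kilobase for Psmd5, within their spread. Neighbours near the top could be close, as at ranks 4 to 7 in EAE NeuN-positive libraries. There Psmd2, Psmd3, Psmb4 and Psmd13 stood at 45.8 ± 16.6, 45.7 ± 10.8, 39.9 ± 16.9 and 39.5 ± 15.5 CPM per kilobase, and no neighbours among them differed beyond their SD. With the longest transcript in place of all exons, Psmc5 and Psmd4 remained first and second and Psmd5 last over the 20 libraries. Psmc4 moved to rank 6 in place of rank 3, and Psmd9 to rank 31 in place of rank 35.

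By role, the ATPase ring had the highest median level, at 25.8 CPM per kilobase in EAE NeuN-positive, 34.2 in healthy NeuN-positive, 22.9 in EAE NeuN-negative and 40.3 in healthy NeuN-negative libraries. The alpha ring, of which every member is needed in equal number in the assembled core, had medians of 8.54, 12.8, 9.91 and 11.1 CPM per kilobase in the same order of groups. Its members still ranged from 4.32 (Psma5) to 24.5 CPM per kilobase (Psma6) in EAE NeuN-positive libraries. The cap assembly chaperones had the lowest medians, between 2.16 and 3.74 CPM per kilobase in the 4 groups.

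**Figure D1:**
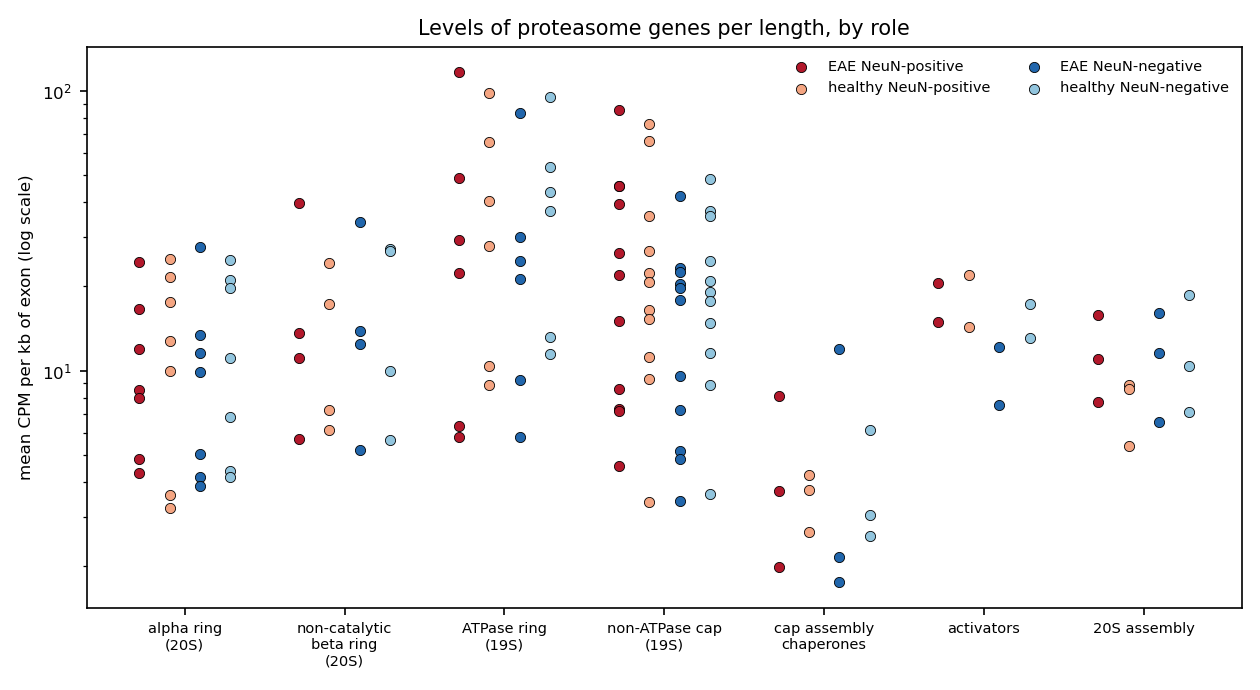
Mean level of each of the 36 genes in CPM per kilobase of exon (log axis), by role and by group of 5 libraries. Psmc5 is the highest point in all 4 groups. The cap assembly chaperone Psmd5 is the lowest point except in healthy NeuN-negative libraries, where Psmd9 is the lowest.

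The spread of the members between libraries was described by the coefficient of variation of CPM, with a median over the 36 genes of 29.4% in EAE NeuN-positive and 19.2% in healthy NeuN-positive libraries, and of 42.8% in EAE NeuN-negative and 24.1% in healthy NeuN-negative libraries. Pomp varied least of all members in healthy NeuN-positive libraries (3.44%), and Psmd9 varied least in EAE NeuN-negative libraries (4.72%). The sum over the 36 genes was 1863 to 2508 CPM in EAE NeuN-positive and 1992 to 2510.1 CPM in healthy NeuN-positive libraries, and 935 to 2096 CPM in EAE NeuN-negative and 1588 to 2249 CPM in healthy NeuN-negative libraries. The lowest sums were those of EAE NeuN-negative 2 (935 CPM) and 4 (1024 CPM), libraries of 2 of the mice with a high mitochondrial share. The part of cell makeup and of RNA quality in these sums was not tested.

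In NeuN-positive nuclei 5 of the 36 proteasome genes changed in EAE. The assembly factor Pomp, the beta ring gene Psmb1 and the cap genes Psmd2 and Psmd13 were higher, the cap gene Psmd6 was lower, and the other 31 members did not pass the test. By edgeR's quasi-likelihood test with Benjamini-Hochberg adjustment over 16675 genes, 4 members were higher (11.1%, against 6.55% of all genes) and 1 was lower (2.78%, against 3.68% of all genes). The median log2 fold change of the members was -0.02, beside -0.03 over all genes, with 17 members positive and 19 negative. Without the 3 mice the member median was 0.03 and with the mitochondrial covariate 0.13, with 21 positive and 15 negative in both. The libraries of EAE and healthy mice did not overlap for Psmb1, Psmd2, Psmd8 and Pomp (higher, 11.1% against 5.16% of all genes) and for Psmd7 (lower, 2.78% against 4.75%). In nuclei pooled from many cells, a change in the number of cells of a type and a change in RNA per cell cannot be told apart.

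Pomp encodes the maturation protein that builds the beta ring onto the alpha ring and is then degraded by the finished core (chromosome 5, 147860461 to 147876456, plus strand, GRCm38). Its level was 71.9, 165, 38.5, 69.2 and 67.0 CPM in the 5 EAE NeuN-positive libraries, against 27.1, 28.1, 29.4, 28.7 and 27.2 CPM in the 5 healthy NeuN-positive libraries. The healthy libraries lay within a few CPM of each other, every EAE library lay above them, and EAE 2 stood far above the rest. The log2 fold change was 1.66 ± 0.34 (SE; edgeR adjusted p = 0.00747). In NeuN-negative nuclei Pomp stood at 119.6, 81.0, 66.7, 69.3 and 81.8 CPM in EAE libraries, against 31.2, 29.6, 30.9, 33.8 and 60.1 CPM in healthy libraries. The groups again did not overlap, and healthy 5 stood apart above the other healthy libraries. The change there was 1.44 ± 0.29 (edgeR adjusted p = 0.00186). Pomp passed the test in both sorts when any library was left out and without the 3 mice of high mitochondrial share (1.21 ± 0.23, adjusted p = 0.0102 in NeuN-positive and 1.44 ± 0.31, adjusted p = 0.00416 in NeuN-negative nuclei, edgeR). The EAE libraries that remained without these mice still had a higher mitochondrial share than the healthy ones in both sorts. With the mitochondrial share as a covariate, added after the data were seen, it did not pass in NeuN-positive (1.002 ± 0.39, edgeR adjusted p = 0.174) or NeuN-negative nuclei (1.17 ± 0.41, edgeR adjusted p = 0.0926).

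Psmd6, a subunit of the cap's lid (chromosome 14, 14112174 to 14120984, minus strand, GRCm38), moved the other way in both sorts. It was at 19.6, 14.5, 42.5, 24.02 and 19.7 CPM in EAE NeuN-positive libraries, against 66.1, 63.7, 41.1, 69.7 and 48.9 CPM in healthy NeuN-positive libraries. All EAE libraries but replicate 3 lay below all healthy libraries, and EAE 3 lay just above healthy 3. The log2 fold change was -1.19 ± 0.28 (edgeR adjusted p = 0.0165). In NeuN-negative nuclei the values were 22.9, 13.9, 45.1, 5.60 and 13.8 CPM in EAE libraries, against 64.6, 72.4, 36.1, 69.6 and 50.6 CPM in healthy libraries. The overlap was of the same kind, with EAE 3 above healthy 3. The change was -1.31 ± 0.40 (edgeR adjusted p = 0.0243). In NeuN-positive nuclei the edgeR call was lost without EAE 1 (adjusted p = 0.0503), without EAE 5 (0.0513) and without the 3 mice of high mitochondrial share (0.0512). In NeuN-negative nuclei it was lost without EAE 2 (adjusted p = 0.0594), EAE 4 (0.0636), EAE 5 (0.0787), healthy 2 (0.0541) or healthy 4 (0.0508), by edgeR. With the mitochondrial covariate Psmd6 changed by -0.91 ± 0.32 in NeuN-positive (edgeR adjusted p = 0.136) and by -0.58 ± 0.44 in NeuN-negative nuclei (edgeR adjusted p = 0.559), and passed in neither.

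**Figure D2:**
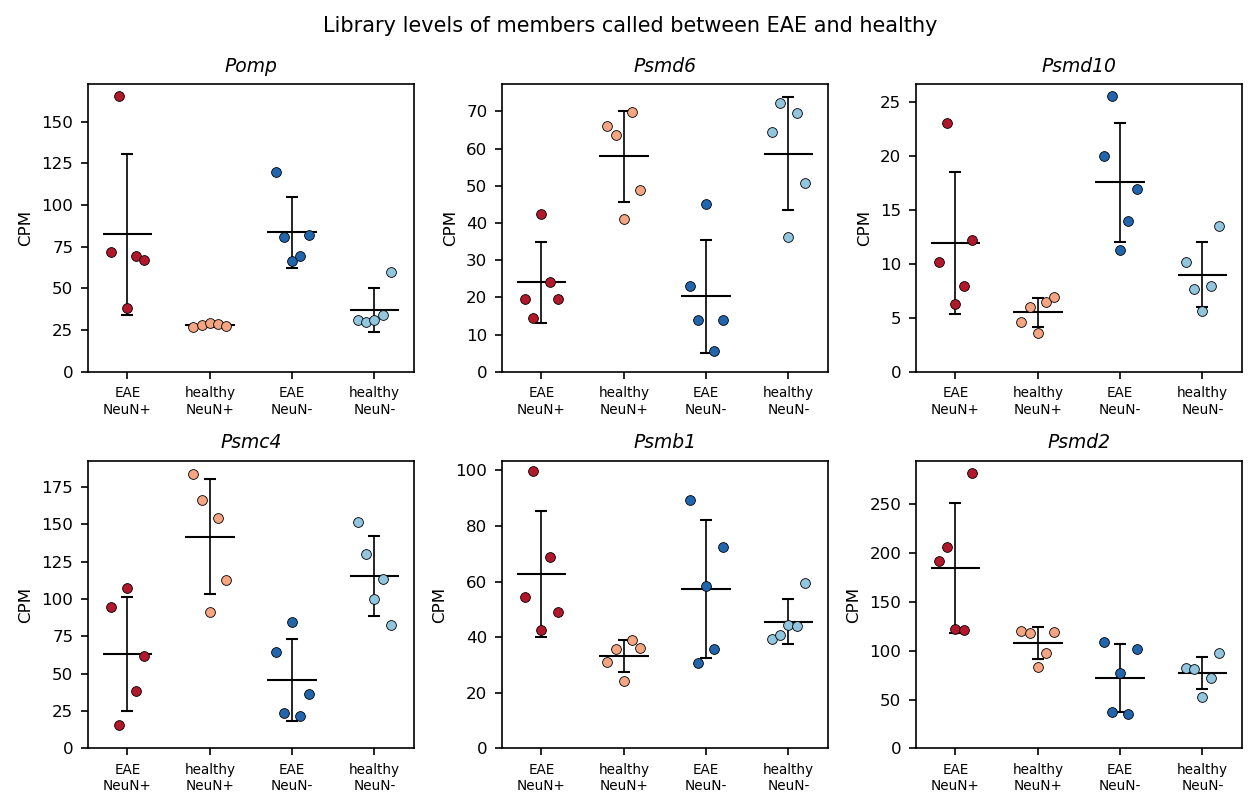
CPM of members called in an EAE comparison, by library (points), with the mean and SD of each group of 5. Pomp is higher in every EAE library than in every healthy library of the same sort, while Psmd6 is lower in all EAE libraries but replicate 3.

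Psmb1 encodes a structural beta subunit that carries no active site of its own (chromosome 17, 15475021 to 15499751, minus strand, GRCm38). It was at 54.3, 99.6, 42.5, 68.8 and 49.1 CPM in EAE NeuN-positive libraries, against 31.1, 35.9, 24.2, 39.1 and 36.3 CPM in healthy NeuN-positive libraries. The groups did not overlap, and EAE 2 was the highest. The log2 fold change was 1.02 ± 0.27 (edgeR adjusted p = 0.0288). The call was lost without EAE 2 (adjusted p = 0.0545), EAE 4 (0.0618), healthy 1 (0.0797), healthy 2 (0.0712) or healthy 4 (0.0511), and without the 3 mice (0.0793), all by edgeR. The mitochondrial covariate ended it as well (0.63 ± 0.34, edgeR adjusted p = 0.339). In NeuN-negative nuclei the change of Psmb1 was 0.55 ± 0.29 (edgeR adjusted p = 0.159).

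Psmd2 encodes the base subunit of the cap that docks shuttle factors carrying ubiquitinated proteins (chromosome 16, 20651652 to 20663414, plus strand, GRCm38). It was at 192, 206, 122, 121 and 282 CPM in EAE NeuN-positive libraries, against 119.7, 119, 83.7, 97.9 and 119 CPM in healthy NeuN-positive libraries. The groups touched without overlapping, with EAE 3 and 4 barely above the healthy maximum. The log2 fold change was 0.87 ± 0.25 (edgeR adjusted p = 0.0420). In NeuN-negative nuclei the change was 0.12 ± 0.31 (edgeR adjusted p = 0.789). Psmd13, a lid subunit gene (chromosome 7, 140881968 to 140898643, plus strand, GRCm38), was at 106, 169, 75.2, 112 and 205 CPM in EAE NeuN-positive libraries, against 81.0, 81.4, 57.5, 75.2 and 82.1 CPM in healthy NeuN-positive libraries. EAE 3 fell within the healthy range and the other 4 lay above it. The log2 fold change was 0.92 ± 0.27 (edgeR adjusted p = 0.0431) in NeuN-positive and 0.15 ± 0.34 (edgeR adjusted p = 0.762) in NeuN-negative nuclei. Psmd13 overlaps Sirt3 by 342 bases on the opposite strand, and the sources used here do not say whether counting used strand. The Psmd2 call was lost without any one of EAE 1, 2 or 5 or healthy 1 to 5 (edgeR adjusted p = 0.0576 to 0.116). The Psmd13 call was lost without any one of EAE 1, 2, 4 or 5 or healthy 1 to 5 (edgeR adjusted p = 0.0587 to 0.119), and both were lost without the 3 mice (0.0519 for Psmd2 and 0.107 for Psmd13) and with the mitochondrial covariate (0.0798 for Psmd2 and 0.166 for Psmd13).

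Without the 3 mice of high mitochondrial share, 1 member was higher in NeuN-positive nuclei, Pomp, and 0 were lower by edgeR. In that fit 9.04% of all genes were called in either direction. At an unadjusted p under 0.05 the 10-library comparison held 12 members. The share of all genes at that limit is not given here, so no excess of members can be read from it. DESeq2 called 6 higher and 3 lower, while 18% of all genes passed in that test.

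In NeuN-negative nuclei 2 assembly genes, Pomp and Psmd10, were higher in EAE, and the cap genes Psmd6 and Psmc4 were lower. By edgeR over 17604 genes, 2 members were higher (5.56%, against 15.1% of all genes) and 2 were lower (5.56%, against 12.6% of all genes). Their median log2 fold change was -0.29, beside 0.05 over all genes, with 16 members positive and 20 negative. Without the 3 mice the member median was -0.06 (17 positive and 19 negative), and with the mitochondrial covariate it turned to 0.10 (23 positive and 13 negative). The libraries did not overlap for Pomp (higher, 2.78% against 7.04% of all genes) and Psmd11, a lid subunit gene (lower, 2.78% against 11.6%). Psmd11 was at 25.7, 46.6, 33.6, 16.4 and 32.0 CPM in EAE, against 56.5, 56.6, 57.1, 53.2 and 58.9 CPM in healthy NeuN-negative libraries. Its log2 fold change of -0.60 ± 0.30 did not pass the test (edgeR adjusted p = 0.144). Psmd11 was named after its values were seen.

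Psmd10 encodes gankyrin, a chaperone that holds the ATPase PSMC4 while the ATPase ring is put together (chromosome X, 140948429 to 140956728, minus strand, GRCm38). It was at 20, 25.5, 11.3, 14.0 and 16.9 CPM in EAE NeuN-negative libraries, against 10.2, 7.71, 5.66, 7.96 and 13.5 CPM in healthy NeuN-negative libraries. The highest healthy library, replicate 5, lay above the lowest EAE library, replicate 3, and the groups were otherwise apart. EAE and healthy libraries differed by a log2 fold change of 1.25 ± 0.36 (edgeR adjusted p = 0.0172), lost without healthy 2 (0.0705) or healthy 4 (0.0614) and with the mitochondrial covariate (0.97 ± 0.58, adjusted p = 0.409). In NeuN-positive nuclei Psmd10 changed by 1.22 ± 0.38 and did not pass (edgeR adjusted p = 0.0579).

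Psmc4 itself (chromosome 7, 28041707 to 28050101, minus strand, GRCm38) was at 64.5, 23.3, 84.3, 21.8 and 36.1 CPM in EAE NeuN-negative libraries, against 152, 130.2, 100.1, 113 and 82.3 CPM in healthy NeuN-negative libraries. EAE 3 lay just above the lowest healthy library, replicate 5, and the other EAE libraries lay below all healthy ones. On the log2 scale the difference was -1.13 ± 0.35 (edgeR adjusted p = 0.0266). In NeuN-positive nuclei it was -1.09 ± 0.39 (edgeR adjusted p = 0.0871), not past the threshold. The NeuN-negative call was lost without EAE 2, EAE 4, EAE 5, healthy 1 or healthy 2 (edgeR adjusted p = 0.0583 to 0.0886) and without the 3 mice (-0.71 ± 0.31, adjusted p = 0.0985). With the mitochondrial covariate it fell short as well, at -0.51 ± 0.38 (edgeR adjusted p = 0.543). Without these mice 5 members were higher in NeuN-negative nuclei (Psmb1, Psmb4, Psmd8, Psmd10 and Pomp) and 1 was lower (Psmd6). In that fit 29.8% of all genes were called in either direction.

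By role, edgeR called 0 of the 7 alpha ring members in either EAE comparison, with 1 at an unadjusted p under 0.05 in NeuN-positive and 2 in NeuN-negative nuclei. For these unadjusted counts too the share of all genes is not given here. DESeq2 called Psma6 higher in NeuN-negative nuclei (0.79 ± 0.31, adjusted p = 0.0357), where it called 35.6% of all genes. Limma voom called Psma1, Psma3, Psma4 and Psma7 lower and Psma6 higher in NeuN-positive nuclei, and Psma3 and Psma4 lower and Psma2 and Psma6 higher in NeuN-negative nuclei. It called 46.2% of all genes in NeuN-positive and 51.5% in NeuN-negative nuclei. Alpha ring changes ran between -0.76 and 0.58 in NeuN-positive and between -0.88 and 0.76 in NeuN-negative nuclei on the log2 scale. The ATPase ring had medians of -0.31 in NeuN-positive and -0.35 in NeuN-negative nuclei, and the non-ATPase cap had 0.07 and -0.39 for those sorts. Within the cap members went in opposite directions, with Psmd2 and Psmd13 higher beside Psmd6 lower in NeuN-positive nuclei.

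**Figure D3:**
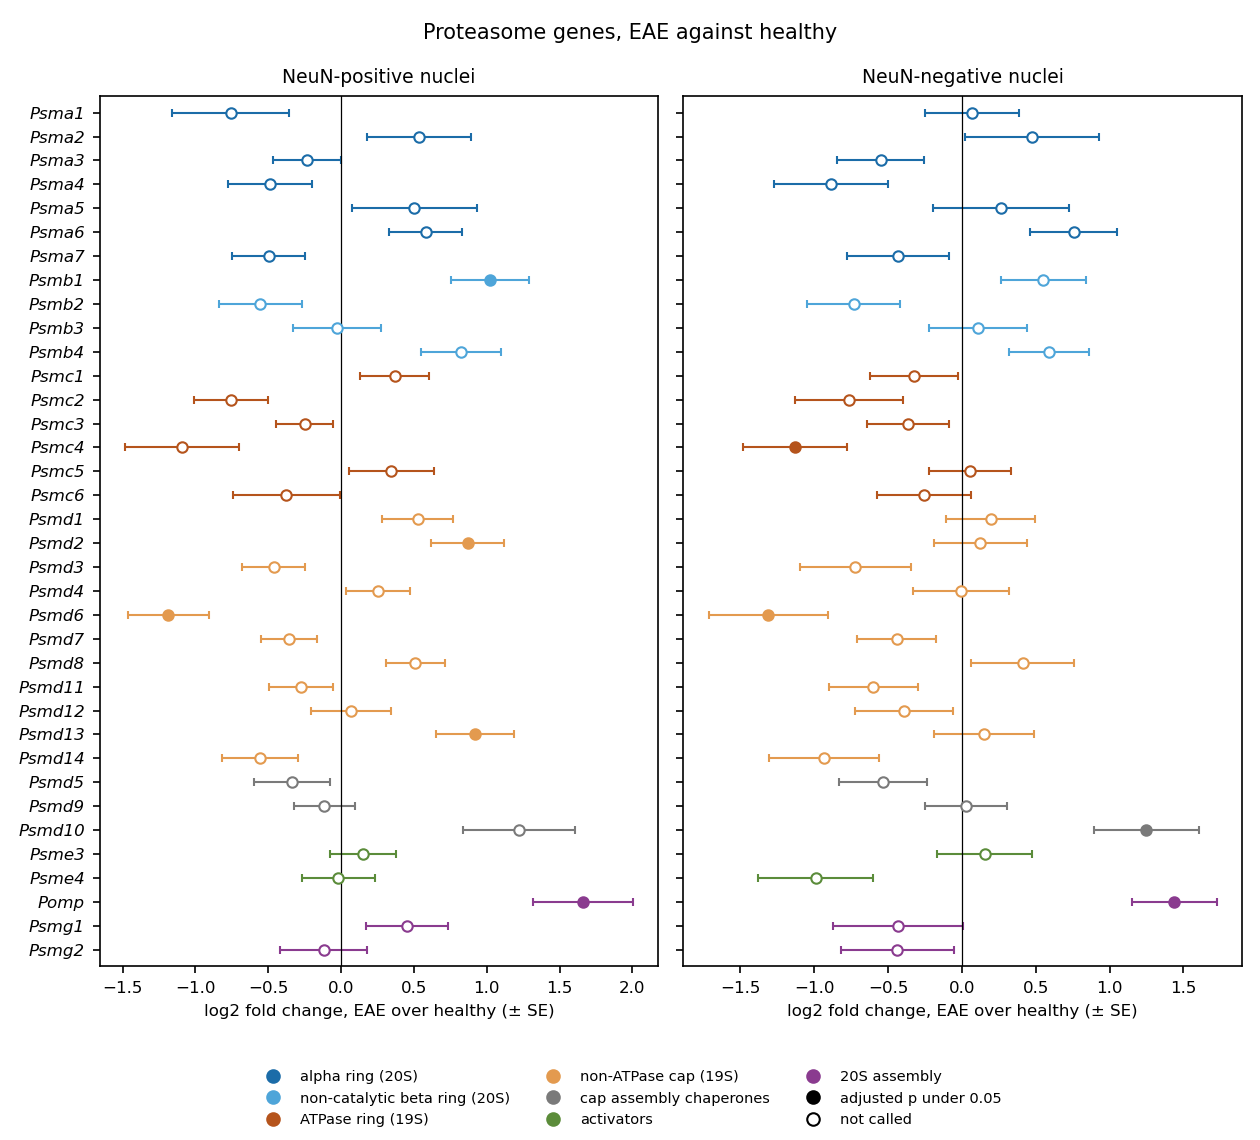
Log2 fold change of each of the 36 genes in EAE over healthy libraries (± SE, 5 against 5) in NeuN-positive and NeuN-negative nuclei, by role. Filled points have an edgeR adjusted p under 0.05: 5 in NeuN-positive and 4 in NeuN-negative nuclei, with Pomp to the right and Psmd6 to the left in both.

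Marker genes of blood immune cells rose in the same libraries. Of 12 monocyte and macrophage markers, 11 were tested and 11 were higher in EAE NeuN-positive nuclei, where their sum was 368 to 2052 CPM against 23.95 to 58.0 CPM in healthy libraries. In NeuN-negative nuclei 12 of 12 were higher, at 870.1 to 3047 CPM against 84.8 to 149 CPM. T cell markers were higher for 6 of 8 tested in NeuN-positive nuclei (21.4 to 107 CPM against 6.98 to 13.4 CPM) and for 12 of 12 in NeuN-negative nuclei (120.4 to 331 CPM against 6.13 to 15.6 CPM). Neutrophil markers were higher for 6 of 7 tested and 7 of 8 tested (31.6 to 169 CPM against 12.7 to 22.4 CPM, with Cxcr2 at 0 in healthy NeuN-positive libraries, and 128 to 540.4 CPM against 86.8 to 137 CPM). Of 12 oligodendrocyte markers, 2 were higher in EAE NeuN-positive nuclei (sums of 10860 to 98068 CPM against 3704 to 44473 CPM) and 7 were lower in EAE NeuN-negative nuclei (32155 to 110220 CPM against 41746 to 71470 CPM). Microglia markers were higher for 4 of 9 tested in NeuN-positive nuclei (114 to 215 CPM against 25.8 to 48.0 CPM), and 2 of 10 were higher and 1 lower in NeuN-negative nuclei. Of 10 astrocyte markers 2 were higher in NeuN-positive and 3 lower in NeuN-negative nuclei, of 10 endothelial markers 1 was higher in each, and B cell markers were higher for 0 of 3 tested and 5 of 6. Of 15 neuron markers 0 were called in NeuN-positive nuclei (20290 to 31045 CPM against 24174 to 27089 CPM), and 1 was higher and 1 lower in NeuN-negative nuclei. Among these cell type markers Cxcr2 was the single one at 0 throughout a group. Their part and that of the mitochondrial share in the changes of Pomp, Psmd6 and the other members was not tested.

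Set beside these, the 3 standard catalytic genes (Psmb5, Psmb6 and Psmb7) had no call in either EAE comparison. Of the inducible catalytic subunits and PA28 activators, 3 of 5 were higher in NeuN-positive and 5 of 5 in NeuN-negative nuclei. Their log2 fold changes ran from 0.34 to 5.09 in NeuN-positive and from 1.20 to 4.07 in NeuN-negative nuclei. The PA28 genes Psme1 and Psme2 averaged 35.0 ± 12.2 and 17.9 ± 5.24 CPM in EAE NeuN-positive libraries (SD). In healthy NeuN-positive libraries they averaged 25.2 ± 5.84 and 15.0 ± 4.67 CPM. Psmb9 rose by 5.09 ± 0.38 and 4.07 ± 0.51 and Psmb8 by 4.55 ± 0.42 and 3.83 ± 0.44 on the log2 scale in NeuN-positive and NeuN-negative nuclei. A list of 9 genes held regulators of proteasome gene expression and the ubiquitin ligase gene Stub1. Of these 9 genes, 1 rose and 1 fell in NeuN-positive nuclei. These were Nfe2l2, a transcription factor of the oxidative stress response (1.61 ± 0.39, edgeR adjusted p = 0.0210), and the ubiquitin ligase gene Stub1 (-1.67 ± 0.47, edgeR adjusted p = 0.0384). In NeuN-negative nuclei 2 rose, the small Maf genes Maff (3.56 ± 0.51) and Mafk (1.44 ± 0.28), and 2 fell, Nfe2l3 and Stub1. Nfe2l1, whose product drives the proteasome bounce-back response, was called in neither.

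Of 21 proteasome partners tested, 1 rose and 1 fell in NeuN-positive nuclei. The assembly factor gene Psmg3 was the one that rose (0.92 ± 0.27, edgeR adjusted p = 0.0458). In NeuN-negative nuclei 1 partner rose and 2 fell. Of 19 ubiquitin and p97 pathway genes, 0 rose and 1 fell in NeuN-positive nuclei and 0 rose and 3 fell in NeuN-negative nuclei.

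Between the sorts, 5 members were higher in NeuN-positive than in NeuN-negative nuclei of EAE mice. Psmd2, Psmd3 and Psmd4 of the cap, the activator Psme4 and the alpha ring gene Psma3 were those 5, and 0 members were lower. By edgeR over 17982 genes these 5 made up 13.9% of the members, against 15.5% of all genes called higher, and 14.8% of all genes were called lower. The median of the members was 0.20, beside -0.16 over all genes, and all 11 non-ATPase cap genes had a positive log2 fold change, between 0.05 and 1.29. Scaled by DESeq2 size factors, the all-gene median shifted by -0.10, and 21 members were then positive, against 25 with TMM. That shift is larger in size than the smallest of the 11 cap values, whose signs under that scaling are not given here. Without the 3 mice 18 members were positive and 18 negative, and their median was -0.00386, beside -0.08 over all genes. With 0 members called lower by edgeR, 0 of the 6 at an unadjusted p under 0.05 had a negative sign. Limma voom called 2 lower, among 50.9% of all genes called in either direction. The libraries did not overlap for Psma3, Psmd2, Psmd4, Psmd9 and Psme4 (higher, 13.9% against 12.3% of all genes), and 0 were lower without overlap, against 7.15% of all genes.

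Psme4 encodes a large activator that is found in nuclei and opens the core without ATP (chromosome 11, 30771726 to 30880361, plus strand, GRCm38). It was at 212, 104, 171, 106 and 267 CPM in EAE NeuN-positive libraries, against 99.3, 25.2, 92.1, 21.2 and 78.0 CPM in EAE NeuN-negative libraries. The sorts did not overlap, and replicates 2 and 4 were lowest in both. The sorts differed by a log2 fold change of 1.40 ± 0.42 (edgeR adjusted p = 0.0189), lost without EAE NeuN-positive 1 (0.0520) or 5 (0.0668) and with the mitochondrial covariate (0.72 ± 0.35, adjusted p = 0.156). Paired by the library number as a block, the difference was 1.51 ± 0.24 (edgeR adjusted p = 9.05e-04). In healthy mice Psme4 was at 199, 193, 152, 192 and 183 CPM in NeuN-positive libraries, against 182, 188, 83.0, 131 and 139 CPM in NeuN-negative libraries. Those ranges overlapped, and the difference of 0.40 ± 0.19 did not pass the test (edgeR adjusted p = 0.101). With the library number as a block, which pairs the sorts, it did (0.43 ± 0.11, edgeR adjusted p = 0.00665).

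Psmd2 was at 192, 206, 122, 121 and 282 CPM in EAE NeuN-positive libraries, against 109, 37.5, 76.7, 35.6 and 102 CPM in EAE NeuN-negative libraries. The lowest NeuN-positive library lay above the highest NeuN-negative one. On the log2 scale the difference was 1.29 ± 0.37 (edgeR adjusted p = 0.0135), lost without EAE NeuN-positive 5 (0.0553). Paired by the block it was 1.32 ± 0.26 (edgeR adjusted p = 0.00275). In healthy mice it was at 119.7, 119, 83.7, 97.9 and 119 CPM in NeuN-positive and 82.4, 81.7, 52.7, 71.8 and 97.9 CPM in NeuN-negative libraries, higher by 0.53 ± 0.17 with overlapping ranges (edgeR adjusted p = 0.0227). That call was lost without healthy NeuN-negative 2 or 4 or healthy NeuN-positive 1, 2 or 5 (edgeR adjusted p = 0.0523 to 0.0702). Paired by the block the difference in healthy mice was 0.53 ± 0.09 (edgeR adjusted p = 4.37e-04).

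Psmd3, a lid subunit gene (chromosome 11, 98682554 to 98695979, plus strand, GRCm38), was at 291, 149, 249, 203 and 242 CPM in EAE NeuN-positive libraries, against 131, 25.2, 153, 66.7 and 114 CPM in EAE NeuN-negative libraries. Only replicate 2 of the NeuN-positive libraries reached down into the NeuN-negative range. The sorts differed by a log2 fold change of 1.16 ± 0.39 (edgeR adjusted p = 0.0327), lost without EAE NeuN-negative 4 or 5 or EAE NeuN-positive 1, 3, 4 or 5 (0.0511 to 0.0911) and with the mitochondrial covariate (0.67 ± 0.34, adjusted p = 0.178). Paired by the block the difference was 1.30 ± 0.26 (edgeR adjusted p = 0.0032). Healthy mice gave 379.7, 365, 334, 335 and 231 CPM in NeuN-positive libraries, against 209, 202, 181, 193 and 141 CPM in NeuN-negative libraries. These did not overlap, and replicate 5 was the lowest in both sorts. On the log2 scale the difference was 0.86 ± 0.18 (edgeR adjusted p = 0.00212), and the call held when any library was left out.

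Psmd4 (chromosome 3, 95032694 to 95042614, minus strand, GRCm38) was at 293, 245, 194, 216 and 255 CPM in EAE NeuN-positive libraries, against 174, 63.7, 131, 67.1 and 154 CPM in EAE NeuN-negative libraries, without overlap. The difference was 0.96 ± 0.33 (edgeR adjusted p = 0.0343), lost without EAE NeuN-negative 2, 4 or 5 or EAE NeuN-positive 1, 3, 4 or 5 (0.0520 to 0.103) and with the mitochondrial covariate (0.78 ± 0.33, adjusted p = 0.1001). Paired by the block it was 1.02 ± 0.25 (edgeR adjusted p = 0.00834). In healthy mice Psmd4 was at 229.6, 214, 251, 238 and 135 CPM in NeuN-positive libraries, against 141, 146, 155, 141 and 98.6 CPM in NeuN-negative libraries. Replicate 5 was low in both sorts, and its NeuN-positive library lay inside the NeuN-negative range. The difference was 0.67 ± 0.21 (edgeR adjusted p = 0.0215), lost without healthy NeuN-negative 5 (0.0516) or healthy NeuN-positive 4 (0.0547). Paired by the block it was 0.67 ± 0.08 (edgeR adjusted p = 6.49e-05).

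Psma3, an alpha ring gene (chromosome 12, 70974621 to 70996347, plus strand, GRCm38), was at 32.2, 23.5, 34.0, 35.7 and 30.0 CPM in EAE NeuN-positive libraries, against 13.7, 15.8, 18.1, 12.01 and 15.5 CPM in EAE NeuN-negative libraries. The ranges did not overlap. The sorts differed by a log2 fold change of 0.95 ± 0.30 (edgeR adjusted p = 0.0228), lost without EAE NeuN-negative 1 (0.0506) or EAE NeuN-positive 1 (0.0534) and with the mitochondrial covariate (0.0727). Paired by the block the difference was 0.95 ± 0.27 (edgeR adjusted p = 0.0195). In healthy mice the difference was 0.60 ± 0.25 (edgeR adjusted p = 0.0708) without the block and 0.59 ± 0.11 (adjusted p = 8.00e-04) with it. Psma3 overlaps the transcript 3110056K07Rik by 4733 bases on the opposite strand. Without the 3 mice, 6 members were higher in NeuN-positive nuclei of EAE mice (Psmd9 joined the 5) and 1, the ATPase ring gene Psmc6, was lower (-0.86 ± 0.27, edgeR adjusted p = 0.0272). In that fit 41.7% of all genes were called in either direction.

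In healthy mice the sorts differed for members in both directions. Psmd3, Psmd9, Psmd4, Psmd2 and Psma1 were higher and Psmg2, Psmb2 and Psma4 lower in NeuN-positive nuclei. By edgeR over 17134 genes, 5 members were higher (13.9%, against 22.8% of all genes) and 3 were lower (8.33%, against 23.0% of all genes). The median of the members was -0.06, beside -0.01 over all genes. The libraries did not overlap for Psmd3 and Psmd9 (higher, 5.56% against 16.6% of all genes) and for Psmb1 and Pomp (lower, 5.56% against 17.2%). With the library number as a block, 9 members were higher and 7 were lower, among 65.6% of all genes called. The members added were Psma3, Psma7, Psmc4 and Psme4 (higher) and Psmb1, Psmc3, Psmc6 and Psmd10 (lower). Without the healthy mouse of high mitochondrial share 6 were higher, Psma3 being added (0.59 ± 0.18, edgeR adjusted p = 0.0192), and 3 were lower. In that fit 52.1% of all genes were called in either direction.

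Psmd9 encodes a chaperone of the ATPase ring (chromosome 5, 123169413 to 123250131, plus strand, GRCm38). It was at 30.5, 30.3, 30.4, 34.9 and 27.7 CPM in healthy NeuN-positive libraries, against 19.5, 20.6, 13.9, 16.7 and 21.8 CPM in healthy NeuN-negative libraries. The sorts did not overlap, and the difference of 0.78 ± 0.18 (edgeR adjusted p = 0.00301) held when any library was left out. In EAE mice it was at 31.9, 20.2, 22.4, 27.8 and 31.8 CPM in NeuN-positive libraries, against 15.0, 15.1, 16.8, 16.0 and 15.3 CPM in NeuN-negative libraries. These did not overlap either, but the difference of 0.67 ± 0.30 did not pass the test (edgeR adjusted p = 0.0972). Psmd9 overlaps the noncoding gene Gm26745 on the opposite strand.

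Psmg2 encodes one partner of the chaperone pair that starts the alpha ring. It was at 16.4, 18.4, 8.05, 17.0 and 17.3 CPM in healthy NeuN-positive libraries, against 39.9, 39.9, 18.1, 28.0 and 35.4 CPM in healthy NeuN-negative libraries. Healthy 3 was the lowest in both sorts, and its NeuN-negative library lay within the NeuN-positive range. The difference was -1.01 ± 0.26 (edgeR adjusted p = 0.00628) and held when any library was left out. In EAE mice Psmg2 was at 13.5, 7.42, 18.1, 10.2 and 17.6 CPM in NeuN-positive libraries, against 27.4, 21.1, 27.1, 4.20 and 20.9 CPM in NeuN-negative libraries. EAE NeuN-negative 4 lay below all others, and the difference of -0.65 ± 0.43 did not pass (edgeR adjusted p = 0.256).

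Psmb2, a structural beta ring gene (chromosome 4, 126677630 to 126709714, plus strand, GRCm38), was at 22.4, 21.4, 16.3, 26.8 and 17.6 CPM in healthy NeuN-positive libraries, against 37.2, 38.7, 23.5, 33.7 and 31.2 CPM in healthy NeuN-negative libraries. The lowest NeuN-negative library, replicate 3, fell below the highest NeuN-positive one. The difference was -0.61 ± 0.19 (edgeR adjusted p = 0.0213), lost without healthy NeuN-negative 1 or 2 or healthy NeuN-positive 2 (0.0518 to 0.0577). Paired by the block it was -0.62 ± 0.12 (edgeR adjusted p = 0.0011). Psma4, an alpha ring gene (chromosome 9, 54950790 to 54958030, plus strand, GRCm38), was at 42.5, 33.6, 13.6, 29.2 and 32.4 CPM in healthy NeuN-positive libraries, against 78.8, 81.4, 22.4, 61.3 and 51.8 CPM in healthy NeuN-negative libraries. Replicate 3 was the lowest in both sorts, and its NeuN-negative library was the one that overlapped the NeuN-positive range. The difference was -0.91 ± 0.33 (edgeR adjusted p = 0.0400), lost without healthy NeuN-negative 1, 2 or 4 or healthy NeuN-positive 2, 3, 4 or 5 (0.0525 to 0.0999). Paired by the block it was -0.89 ± 0.12 (edgeR adjusted p = 1.24e-04).

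Psma1, another alpha ring gene, was higher in NeuN-positive nuclei of healthy mice by 1.004 ± 0.35 (edgeR adjusted p = 0.0314), with 21.4 to 86.4 CPM in NeuN-positive and 19.7 to 46.9 CPM in NeuN-negative libraries. That call was lost without healthy NeuN-negative 1 to 4 or healthy NeuN-positive 1, 2 or 5 (edgeR adjusted p = 0.0527 to 0.0823) and with the mitochondrial covariate (0.41 ± 0.27, adjusted p = 0.227). Paired by the block the difference was 0.92 ± 0.18 (edgeR adjusted p = 0.00124). Alpha ring genes thus included 1 called higher and 1 called lower in the same comparison.

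**Figure D4:**
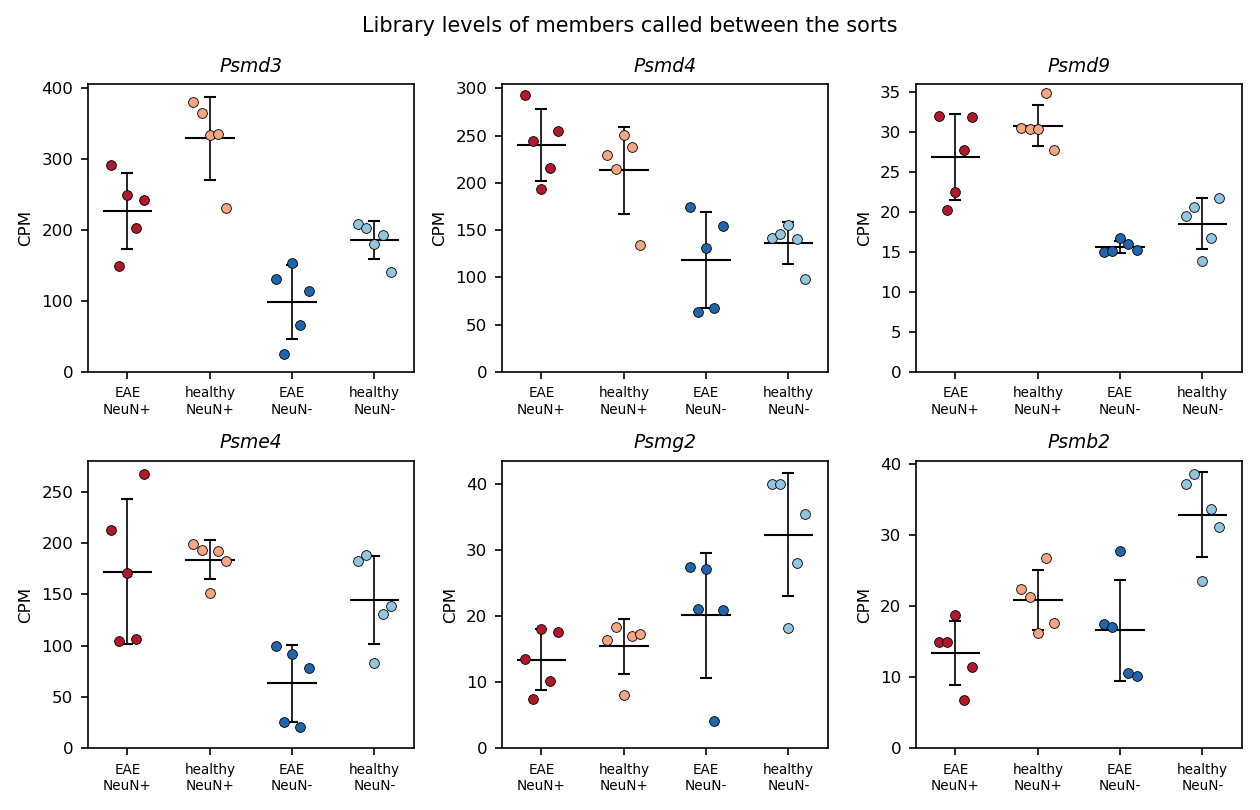
CPM of 6 members called between the sorts, by library (points), with the mean and SD of each group of 5. Psmd3 and Psmd4 were called higher in NeuN-positive nuclei of EAE and of healthy mice, Psme4 in EAE mice only and Psmd9 in healthy mice only. Psmg2 and Psmb2 were called lower in healthy mice only. Single libraries of replicates 3, 4 and 5 are set apart in several panels.

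**Figure D5:**
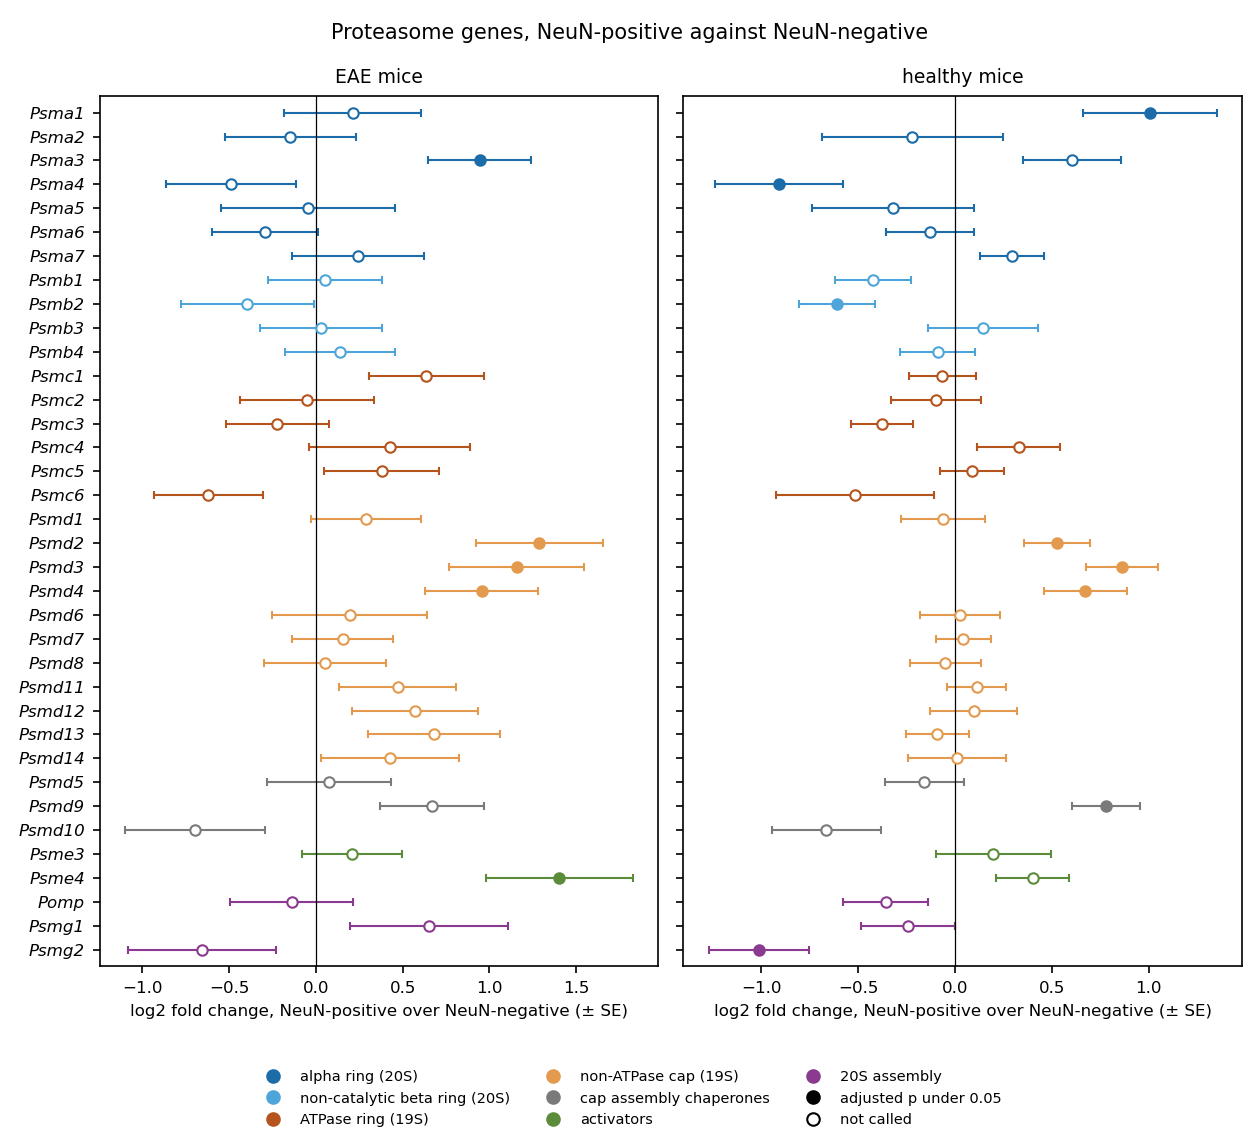
Log2 fold change of each of the 36 genes in NeuN-positive over NeuN-negative nuclei (± SE, 5 against 5) in EAE and in healthy mice, by role. Filled points have an edgeR adjusted p under 0.05, 5 in EAE mice and 8 in healthy mice. All 11 non-ATPase cap genes lie right of 0 in EAE mice under TMM scaling, the lowest of them at 0.05.

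Markers of the sorted populations differed as well: 12 of 15 neuron markers were higher and 9 of 12 oligodendrocyte, 10 of 10 microglia and 5 of 10 astrocyte markers lower in NeuN-positive nuclei of EAE mice, and 11, 10, 10 and 10 of the same lists in healthy mice. In EAE mice 8 of 12 monocyte and macrophage and 8 of 12 T cell markers were lower in NeuN-positive nuclei. Of the neuron markers 1 was called lower there. Neutrophil markers went both ways, 1 higher and 3 lower of 8 tested in EAE and 1 higher and 2 lower of 4 tested in healthy mice. In healthy mice 1 B cell marker was higher and 3 lower of 5 tested, and 1 of 4 T cell markers tested was higher. The part of cell makeup in the differences of Psmd2, Psme4 and the other members was not tested.

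Other genes of the pathway also differed between the sorts. Of the 21 partners, 3 were called higher in NeuN-positive nuclei of EAE mice and 0 lower, and 3 higher and 1 lower in healthy mice. The shuttle factor gene Ubqln4 was among the higher ones in both (2.17 ± 0.37 in EAE and 1.09 ± 0.16 in healthy mice). In the list of regulators and Stub1, 0 were higher and 3 lower in EAE mice, and 1 was higher and 4 lower in healthy mice. Nfe2l1 was the one higher in healthy mice (1.09 ± 0.19), and Nfe2l2 was lower in both (-1.62 ± 0.41 in EAE and -2.64 ± 0.31 in healthy mice). Of the standard catalytic genes, Psmb6 was lower in NeuN-positive nuclei of healthy mice (-0.52 ± 0.17, edgeR adjusted p = 0.0279).

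The change in EAE was last compared between the sorts in a single fit of all 20 libraries. No member passed the test of this difference: by edgeR 0 were called, against 2.56% of 20444 genes (1.74% higher and 0.822% lower). At an unadjusted p under 0.05 there was 1 member, Psme4, and DESeq2 called 0. These fits did not pair the sorts by library number. With that number as a block, edgeR called 1 member, Psme4, and 12.2% of all genes. So the rises of Psmb1, Psmd2 and Psmd13 in NeuN-positive nuclei and the changes of Psmd10 and Psmc4 in NeuN-negative nuclei were not shown to differ between the sorts. The differences were 0.57 ± 0.43 for Psmb1, 0.87 ± 0.45 for Psmd2, 0.89 ± 0.47 for Psmd13, 0.15 ± 0.52 for Psmd10 and 0.16 ± 0.57 for Psmc4 (log2, SE). For Pomp the difference was 0.37 ± 0.45 (edgeR adjusted p = 0.716) and for Psmd6 it was 0.25 ± 0.54 (edgeR adjusted p = 0.853).

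Psme4 differed by 1.09 ± 0.53 (edgeR adjusted p = 0.268) without the block. With the library number as a block the difference was 1.20 ± 0.31 (edgeR adjusted p = 0.0207), and limma voom gave 1.38 ± 0.35 (adjusted p = 0.00541). Its own EAE change was -0.02 ± 0.25 in NeuN-positive and -0.99 ± 0.39 in NeuN-negative nuclei, neither past the threshold (edgeR adjusted p = 0.968 and 0.0675). The sign of the difference was positive for 33 of 36 members, with a median of 0.37 beside 0.15 over all genes. Under DESeq2 size factors, where the all-gene median shifted by -0.25, 23 members were positive, and without the 3 mice of high mitochondrial share 14 were positive and 22 negative.

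Fbxo7, a proteasome partner gene whose product binds the proteasome inhibitor PI31, was the one gene of the pathway lists called in this difference (1.73 ± 0.43, edgeR adjusted p = 0.0312). It was at 109.8, 107, 102, 103 and 109.7 CPM in EAE NeuN-positive and 89.6, 92.6, 77.8, 94.0 and 102 CPM in healthy NeuN-positive libraries, and at 150.1, 65.9, 217, 69.5 and 194 CPM in EAE NeuN-negative and 447, 461, 379, 457 and 250.2 CPM in healthy NeuN-negative libraries. Every EAE NeuN-negative library lay below every healthy NeuN-negative library. In NeuN-positive nuclei the order was reversed, with the lowest EAE library (101.75 CPM) barely above the highest healthy library (101.52 CPM). Glial markers moved in the same direction in this comparison: 12 of 12 oligodendrocyte (median 1.86, 5 called), 10 of 10 astrocyte (median 1.57, 1 called) and 10 of 10 microglia markers (median 1.72, 2 called) were positive on the log2 scale. Their part was not tested. The call was lost without any one of EAE NeuN-positive 1, 2, 4 or 5, EAE NeuN-negative 4, healthy NeuN-positive 1 to 5 or healthy NeuN-negative 1 to 4 (edgeR adjusted p = 0.0533 to 0.115) and without the 3 mice (1.11 ± 0.32, edgeR adjusted p = 0.0650).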

How the data were processed

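Nuclei of mouse spinal cord were sorted on NeuN, and poly-A RNA libraries were sequenced, per the labels' protocols. The authors deposited 1 table of raw read counts per gene (43629 genes, 20 libraries). The submitters' processing notes name STAR 2.4, DESeq2 and the builds GRCm39 and mm10, without roles. The sources used here name no counting tool and do not say whether strand was used. Gene symbols (42462 matched), positions and exon lengths came from GENCODE M21 (GRCm38).

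Counts were tested with edgeR 4.0.16 (quasi-likelihood, robust, TMM, filterByExpr; R 4.3.3) over the whole table, with Benjamini-Hochberg adjustment over all genes tested in each of 5 comparisons and a threshold of 0.05. The script was tested on simulated data. CPM used TMM scaling over the 20 libraries. The members and all gene lists were chosen with earlier results of these data known. Values in every library are given for members called in an EAE comparison and for the 4 called members with the smallest p in each direction between the sorts. Psma1, called beyond these 4, and the pathway genes Stub1, Psmg3, Nfe2l1, Nfe2l3 and Psmb6, beyond the 6 called pathway genes with the smallest p per comparison, were named after their values were seen. Of 58 pathway genes 57 had a row. Some pathway genes that passed the test are not reported here.

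The labels do not say that the libraries came from separate mice, so p-values measure the spread between these libraries, which may be technical. All 40 replicate pairs differed by more than counting noise (chi-square per gene 11.1 to 392.8). Deviations from the group means correlated between the sorts of a number at 0.214 to 0.475 in EAE and 0.422 to 0.78 in healthy mice, above the limit of 0.1 in every pair. The numbers were therefore taken to pair the sorts. The main fits between the sorts and the fits leaving out a library did not use this pairing. For members, the fit with the number as a block is given where it changed a call. It is also given beside calls between the sorts that were lost when a library was left out. The alternatives tried were the size factors of DESeq2 1.42.0 and its Wald test, limma 3.58.1 voom with quality weights, no count filter, at least 1 CPM in at least 5 libraries, the block, a fit on all 20 libraries and leaving out each library. Leaving out the 3 mice and the mitochondrial covariate were added after the data were seen.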

Additional observations from a re-analysis of the deposited data

Results flagged for a closer look

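Of 60 groups of 5 libraries (15 members in 4 groups), 9 held a library far from the other 4 by Dixon's criterion, where chance gives about 1 in 20. Pomp stood high in EAE NeuN-positive 2 (165 CPM), EAE NeuN-negative 1 (119.6 CPM) and healthy NeuN-negative 5 (60.1 CPM). Psmb1 stood high in healthy NeuN-negative 5 (59.6 CPM), where Psmd4 stood low (98.6 CPM). Psmg2 stood low in EAE NeuN-negative 4 (4.20 CPM) and healthy NeuN-positive 3 (8.05 CPM), and Psmd13 stood low in healthy NeuN-positive 3 (57.5 CPM). Psma4 stood high in EAE NeuN-positive 3 (29.7 CPM). EAE 2, EAE 4 and healthy 3 are the mice with a mitochondrial share over 2% in NeuN-positive nuclei, and the part of that share in these values was not tested.

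The EAE change of Fbxo7 differed between the sorts by 1.73 on the log2 scale in the test of the difference itself (edgeR adjusted p = 0.0312).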

How the results depend on the processing

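Over 25 gene results and 493 alternatives, 355 kept direction and side of the threshold, 136 kept direction without passing, 2 newly passed and 0 reversed. Counts are members higher and lower, edgeR unless named. EAE in NeuN-positive nuclei gave 4 and 1, against 6 and 3 by DESeq2's Wald test (18% of all genes called) and 10 and 13 by limma voom (46.2%). They became 1 and 1 without a count filter, 2 and 1 with the replicate block (6.89%) and 1 and 1 on all 20 libraries. Without the 3 mice they were 1 and 0 (9.04%), and with the mitochondrial covariate 0 and 0 (3.8%). In NeuN-negative nuclei 2 and 2 became 4 and 3 by Wald test (35.6% of all genes called) and 6 and 12 by voom (51.5%). They became 0 and 5 without a filter, 2 and 12 on 20 libraries, 5 and 1 without the mice (29.8%) and 0 and 0 with the covariate (8.19%). Between the sorts in EAE mice, 5 and 0 became 6 and 2 by voom (50.9% of all genes called), 6 and 1 without the mice (41.7%) and 1 and 0 with the covariate (22.9%). In healthy mice 5 and 3 became 6 and 3 without the mice (52.1% of all genes called), 6 and 5 by Wald test (50.6%) and 8 and 5 by voom (71.3%). They became 4 and 1 without a filter, 9 and 7 with the replicate block (65.6%), 1 and 1 on 20 libraries and 4 and 5 with the covariate (53.1%). The difference between the sorts stayed at 0 and 0 except for 1 higher by voom (24.1% of all genes called) and 1 with the block (12.2%), Psme4 in both. Leaving out 1 library gave 1 to 6 higher and 0 to 3 lower in NeuN-positive EAE, 1 to 2 and 0 to 6 in NeuN-negative EAE, 1 to 6 and 0 to 0 between sorts in EAE, 3 to 6 and 1 to 4 in healthy mice, and 0 to 0 for the difference. For the fits without a filter, on all 20 libraries and without 1 library, the share of all genes called is not given here. No excess or shortage of members can be read from those counts. The median level was 13.7 CPM per kilobase of exon, against 23.0 with the longest transcript and 15.9 without the mice. The cause of these changes was not tested. EAE and healthy libraries of a number were not paired (correlations -0.39 to 0.299 and -0.332 to 0.309, 1 of 5 best with its own number in each sort), and Psmd2 (0.0664) and Psmd13 (0.0707) lost their calls in that block. Between the sorts the block changed no call besides those given above. Without a filter on low counts, Pomp did not pass in NeuN-negative nuclei (0.0686). The smallest EAE NeuN-negative library held 3149209 counts, which limits precision there.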
